A study of Gallus gallus with 12 samples.

Results

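The genes described here encode transcription factors that mark position along the body and its ducts: the HOX genes, their cofactors of the MEIS and PBX families, the PITX factors and the T-box (TBX) factors. They were taken by name, as every array symbol beginning with HOXA, HOXB, HOXC, HOXD, TBX, MEIS, PBX or PITX followed by a number. This gave 38 genes of the 17956 symbols on the array, measured by 58 of its 37374 features. Each gene is described by the brightest of these features, with the others beside it. Some HOX genes also have a brighter feature under an older style of name, which the rule does not take. The 38 genes were 8 of the HOXA cluster, 6 of HOXB, 6 of HOXD, 2 MEIS, 2 PBX, 3 PITX and 11 TBX genes. No feature carried a HOXC name.

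The tissue was the utero-vaginal junction (UVJ) of White Leghorn hens, the stretch of oviduct joining the shell gland to the vagina, where tubules store sperm. Of the 12 hens, 4 were controls that were neither mated nor inseminated, and 4 were each mated naturally with a single male. The other 4 received sperm-free seminal fluid (SF) by insemination into the cloaca. The fluid was pooled per male and came from the males used for mating. All UVJs were taken 24 h later, and each hen gave 1 array. The controls received no infusion, so the fluid and the act of insemination cannot be told apart, and the age of the hens was not given in the sources used here.

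HOX genes lie in clusters, and their order on the chromosome follows the order in which they are used along the body axis, low numbers in front and high numbers behind. HOX proteins of the back end, with numbers from 9 to 13, pattern the genital ducts in mouse, where each stretch of the duct has its own combination. MEIS and PBX proteins bind DNA together with HOX proteins. PITX1 and TBX4 specify the hindlimb and TBX5 the forelimb in chick and mouse, and TBX2, TBX3, TBX15 and TBX18 act in connective tissue, limb and body wall.

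Signals are given as log2 of the authors' normalised intensity. Random control probes averaged between 3.81 and 3.95 on the 12 arrays, and the median feature lay between 10.07 and 10.11. All 38 genes lay above the random probes on all 12 arrays, by as little as 0.15 for TBX15 on the lowest array and by at least 10.24 for MEIS1. Probes differ in how strongly they bind, so the order of the signals is not an order of transcript abundance. Within groups, arrays correlated over all features at 0.940 to 0.990.

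Among the brightest of these features were MEIS1, HOXB3, TBX3, MEIS2 and PBX3. MEIS1, a HOX cofactor, read 14.17, 14.26, 14.26 and 14.31 in the controls, 14.26, 14.28, 14.26 and 14.26 in the mated hens and 14.30, 14.05, 14.27 and 14.34 in the SF-infused hens. Its SD within groups was 0.08, and 2.97% of all features varied less. HOXB3, a HOX gene of the front end, was nearly as even, with 13.48, 13.41, 13.60 and 13.71 in controls, 13.46, 13.68, 13.60 and 13.68 after mating and 13.49, 13.87, 13.62 and 13.57 after SF-infusion. These features lay near the top of the array's range, where differences can be compressed.

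TBX3, a repressor active in limb and gland development, gave 13.54, 13.07, 12.90 and 13.29 in controls, 12.91, 13.46, 13.17 and 12.97 in mated hens and 13.04, 13.17, 13.30 and 12.40 in SF-infused hens. MEIS2 gave 12.95, 12.60, 12.75 and 13.06, then 12.96, 13.07, 12.37 and 12.96, then 12.78, 13.22, 13.08 and 12.61, in the same order of groups. PBX3 gave 12.42, 12.78, 12.81 and 12.42, then 12.24, 12.36, 13.06 and 12.18, then 12.49, 12.52, 12.19 and 12.24. For these 3 genes the groups overlapped throughout. Lowest of the 38 by the features taken by name were TBX20, HOXD13 and TBX6.

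TBX20, a factor of the embryonic heart, read 5.09, 4.93, 4.61 and 4.45 in controls, 4.2, 4.57, 4.79 and 4.26 in mated hens and 4.67, 4.66, 4.58 and 4.26 in SF-infused hens, close to the random probes. HOXD13, the last gene of its cluster, read 5.85, 6.28, 6.85 and 5.51 in controls, 5.49, 5.65, 5.73 and 6.42 in mated hens and 5.71, 6.10, 5.31 and 5.30 in SF-infused hens. Control replicate 3 and mated replicate 4 held its highest values. By class, the median signal was 10.44 for HOXA, 9.24 for HOXB, 8.11 for HOXD and 6.62 for TBX, and the single genes ran from 7.30 to 10.86 in HOXA, from 6.34 to 13.60 in HOXB, from 5.85 to 10.65 in HOXD and from 4.59 to 13.10 in TBX.

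**Figure D1:**
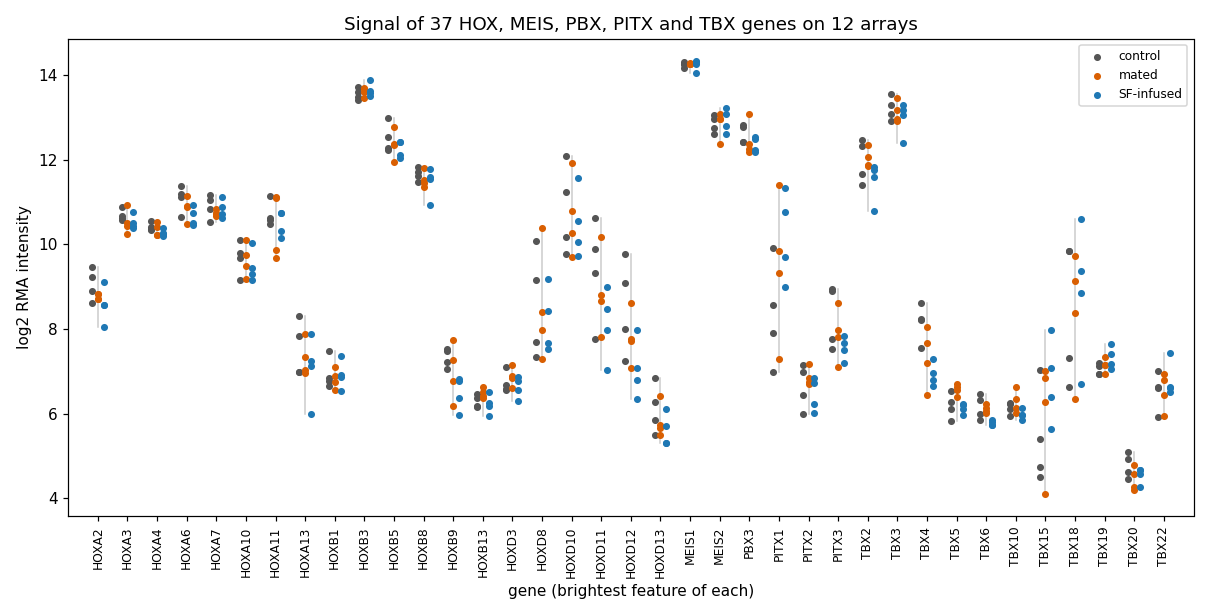
Signal of 37 of the genes on the 12 arrays, on a log2 scale (y axis), by gene (x axis), with a point for each hen coloured by group and a grey line from the lowest to the highest array. MEIS1 spans 14.05 to 14.34, whereas PITX1 spans 6.98 to 11.40 and TBX18 spans 6.34 to 10.60.

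A few genes differed widely between hens of the same group. The median SD within groups was 0.27 for all features and 0.33 for these 38 genes, but 0.89 for the 6 HOXD genes against 0.30 for HOXA and 0.28 for HOXB. TBX18, PITX1 and TBX15 had the largest spread, with within-group SDs of 1.59, 1.35 and 1.17. HOXD8, HOXD11, HOXD10 and HOXD12 followed at 1.15, 1.02, 0.93 and 0.84, and were singled out after their values were seen.

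PITX1 read 8.56, 7.91, 6.98 and 9.91 in controls, 9.31, 9.85, 7.29 and 11.40 in mated hens and 9.0, 10.76, 11.32 and 9.70 in SF-infused hens. Control replicate 3 and mated replicate 3 were lowest, mated replicate 4 and SF replicate 3 highest, and the groups overlapped. Its other 2 features repeated the pattern, with correlations of at least 0.99 between features over the 12 arrays. TBX15, a factor of the body wall and limb, read 5.41, 4.50, 4.74 and 7.03 in controls, 6.28, 6.85, 4.10 and 7.01 in mated hens and 5.64, 7.98, 7.08 and 6.40 in SF-infused hens.

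TBX18, known in mouse from the mesenchyme of the ureter, read 9.83, 7.31, 6.63 and 9.84 in controls, 8.37, 9.13, 6.34 and 9.73 in mated hens and 8.85, 10.60, 9.36 and 6.71 in SF-infused hens. PITX1 and TBX15 were low together in control replicates 2 and 3 and mated replicate 3, and TBX18 was low there too, but it was also low in SF replicate 4, where the other two were not. Over the 12 arrays PITX1 and TBX15 correlated at r = 0.92 (rho = 0.93, and r = 0.88 without the 2 arrays farthest from the median of PITX1), PITX1 and TBX18 at 0.73 (rho = 0.71, and 0.49 without 2). Below too, the 2 arrays left out were set by 1 gene of each pair, so they can differ between pairs. These pairs were chosen after the values were seen, the arrays share a slide and a normalisation, and the correlations are descriptions without a test.

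Neighbouring genes of the HOXD cluster shared their high and low hens. HOXD8 read 10.07, 9.16, 7.70 and 7.34 in controls, 8.41, 7.98, 10.39 and 7.30 in mated hens and 9.18, 7.66, 7.54 and 8.42 in SF-infused hens. HOXD10 read 12.08, 11.23, 10.18 and 9.77, then 10.79, 10.28, 11.91 and 9.70, then 11.56, 10.05, 9.72 and 10.54. Both were high in control replicates 1 and 2, mated replicate 3 and SF replicate 1, and they correlated at r = 0.98 (rho = 0.98, and 0.98 without 2 arrays).

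HOXD11 read 9.33, 9.88, 10.63 and 7.76 in controls, 8.80, 8.65, 10.18 and 7.81 in mated hens and 8.98, 7.97, 7.04 and 8.46 in SF-infused hens. HOXD12 read 8.00, 9.08, 9.77 and 7.23, then 7.71, 7.08, 8.60 and 7.75, then 7.97, 7.08, 6.34 and 6.79. These genes peaked in control replicate 3, where HOXD8 and HOXD10 were below their means, and correlated with each other at 0.90 (rho = 0.85, and 0.79 without 2 arrays). From HOXD8 the correlation fell along the cluster, to 0.62 with HOXD11, 0.38 with HOXD12 and -0.12 with HOXD13. Without the 2 arrays farthest from the median of HOXD11, HOXD12 or HOXD13 in turn, these were 0.92, 0.66 and 0.33. The size of the fall therefore depended on single arrays, and the arrays left out were not the same for all 3 genes.

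Between neighbours among the genes taken by name, which leaves out features under other names such as that of HOXD4, the correlations from HOXD3 to HOXD13 were 0.54, 0.98, 0.64, 0.90 and 0.75, in the order of the GRCg7b assembly. In the HOXA cluster they ran from -0.14, for HOXA2 with the HOXA3 feature whose array name carries chromosome 8, to 0.67, for HOXA10 with HOXA11. Genes were ordered by their annotated start, which in the HOXB cluster puts HOXB3 between HOXB8 and HOXB5, out of the order of their numbers. The HOXB pairs around HOXB3 and HOXB5 therefore need not be true neighbours. In that order, without HOXB9, the correlations were -0.28 for HOXB13 with HOXB8 and -0.75 for HOXB8 with HOXB3 (-0.30 without 2 arrays). They were -0.38 for HOXB3 with HOXB5 and 0.42 for HOXB5 with HOXB1. Not every HOXD10 feature told the same story. Of its other 3 features, the bright one followed the brightest at r = 0.99, while those with mean signals of 7.04 and 7.60 followed it at 0.56 and 0.28. The array also carries 16 HOX features under an older style of name that the naming rule does not take. Those of HOXA3, HOXA7, HOXA11, HOXA13, HOXB1, HOXB5 and HOXD13 include one brighter than the feature used here. The HOXD13 feature among them, with a mean of 6.97 against 5.85, followed HOXD13 at 0.92, with 8.81 in mated replicate 4 and 8.32 in control replicate 3.

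**Figure D2:**
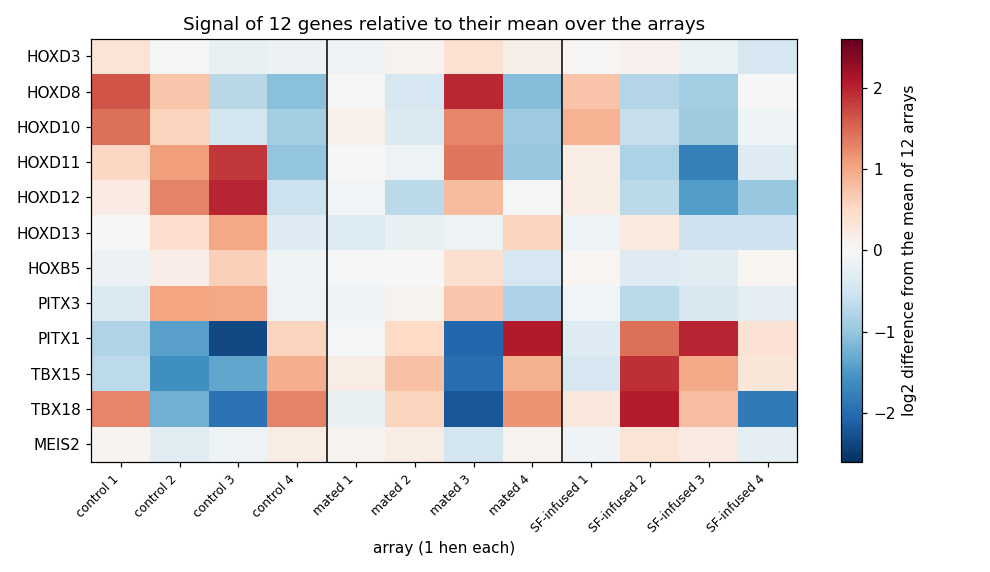
Signal of 12 genes (rows) on the 12 arrays (columns, by group), as the log2 difference from the gene's mean over the arrays, red above and blue below it. HOXD8 and HOXD10 share their high arrays, HOXD11 and HOXD12 peak in control replicate 3, and PITX1, TBX15 and TBX18 are low in control replicate 3 and mated replicate 3.

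The same hens differed in markers of squamous epithelium and of the neighbouring shell gland. A squamous score averaged 10 markers of stratified squamous epithelium, and an eggshell gland score averaged 10 markers of the shell gland. Each marker was taken relative to its mean over the arrays. The squamous score ran from -1.18 to 0.55 in controls, from -1.15 to 0.94 in mated hens and from -0.02 to 0.92 in SF-infused hens. The squamous keratin KRT5 ran from 9.64 to 13.27 over the 12 arrays and TP63, the master regulator of squamous epithelium, from 10.31 to 13.99. Not all squamous markers followed them. DSG2 ran only from 12.70 to 13.25, and KRT15, DSG2 and ITGB4 had estimates of -0.29 (SE 0.32), -0.15 (SE 0.13) and -0.23 (SE 0.34) in SF-infusion versus control, none past the unadjusted threshold, where the other 7 estimates were above 0. The shell gland protein SPP1 ran from 8.01 to 14.49. None of the markers of either list lay on average at or below the random probes. In such bulk tissue fewer cells of a type and less RNA per cell cannot be told apart.

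PITX1 followed the squamous score closely. Over the 12 arrays the correlation was 0.97 (rho = 0.99, and 0.94 without 2 arrays), and it was 0.95 after the group means were removed. TBX15 followed at 0.94 (rho = 0.91), and HOXD11 ran against the score at -0.95 (rho = -0.92, and -0.95 without 2 arrays). PITX1 and HOXD11 mirrored each other, at -0.96 (rho = -0.96). TBX18 followed less closely, at 0.67 (rho = 0.69), and TBX4 did not pass the test for this score (slope -0.08 per unit, adjusted p = 0.83).

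These relations were then tested across all features with limma, within groups, against the tissue score, which is the squamous less the eggshell gland score. Of all features 16.9% passed an adjusted p of 0.05, and of the 38 genes 8 did, or 21.1%, so as a set these genes stood near the background. PITX1 rose by 0.63 per unit of the score (SE 0.09, adjusted p = 0.0035), TBX18 by 0.66 (SE 0.15, adjusted p = 0.020), TBX15 by 0.50 (SE 0.11, adjusted p = 0.015) and MEIS2 by 0.10 (SE 0.03, adjusted p = 0.049). HOXD11 fell by 0.43 per unit (SE 0.09, adjusted p = 0.014), HOXD12 by 0.32 (SE 0.09, adjusted p = 0.039), PITX3 by 0.26 (SE 0.05, adjusted p = 0.0091) and HOXB5 by 0.14 (SE 0.03, adjusted p = 0.0097). Single arrays weighed on these calls. Without mated replicate 3, 2 of the 38 genes passed, PITX1 and PITX3, beside 4.45% of all features, and without control replicate 3, 5 passed, beside 10.3%. PITX1 and PITX3 passed with any 1 of the 12 arrays left out.

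Against the squamous score alone 9 of the 38 genes passed (23.7%, with 13.7% of all features). HOXD8, HOXD10, HOXD11 and HOXD12 fell with it, by 1.18, 0.95, 1.30 and 0.92 per unit (adjusted p = 0.040, 0.042, 0.0034 and 0.025), as did HOXB5, PBX3 and PITX3, while PITX1 rose by 1.75 (adjusted p = 0.0015) and TBX15 by 1.47 (adjusted p = 0.0042). TBX18 missed the threshold here (adjusted p = 0.050). Against the eggshell gland score alone 1 gene passed, PITX3 (adjusted p = 0.049), with 2.44% of all features. No HOXA gene passed with any of the 3 scores.

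**Figure D3:**
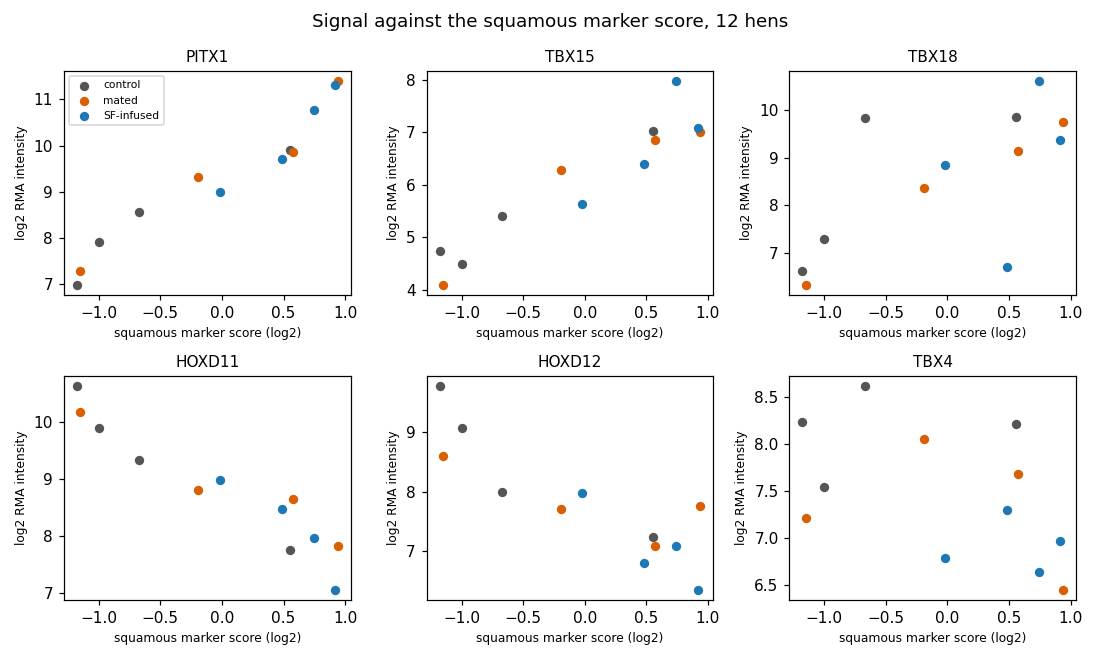
Signal of 6 genes on a log2 scale (y axes) against the squamous marker score on a log2 scale (x axes), with a point for each of the 12 hens coloured by group. PITX1 and TBX15 rise with the score and HOXD11 and HOXD12 fall, while TBX4 lies between 6.64 and 7.29 in all 4 SF-infused hens.

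Each treatment was then compared with the controls, to ask whether mating or SF-infusion alone changed these genes within 24 h. No feature on the array passed an adjusted p of 0.05 in limma in either comparison or between the treatments, and the smallest adjusted p over all features was 0.91 for mating versus control, 0.74 for SF-infusion versus control and 0.64 for mating versus SF-infusion. The unadjusted threshold of 0.05, which the study called suggestive, is therefore used below. The study also set a stricter threshold by permutation over the whole experiment, which was not applied here. The adjusted p of every gene named was at least 0.74 in these fits, and exact permutation tests of 4 hens against 4, two-sided, can give no p below 0.029. The comparisons share the control arrays. The array numbers run through controls, mated and SF-infused hens in turn on 1 slide, so place on the slide and treatment cannot be told apart.

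In SF-infusion versus control 5 of the 38 genes passed, or 13.2%, against 6.47% of all features. All 5 were lower, beside 2.32% of features lower and 4.15% higher. TBX4 read 8.61, 7.55, 8.23 and 8.21 in controls, 8.05, 7.68, 7.21 and 6.45 in mated hens and 6.79, 6.64, 6.97 and 7.29 in SF-infused hens. All 4 SF-infused hens lay below all 4 controls. TBX4 was lower by a log2 difference of -1.23 (SE 0.33, adjusted p = 0.74 in limma, and p = 0.029 in an exact permutation test). Leaving out any 1 of the 12 arrays kept it past the unadjusted threshold, with differences between -1.43 and -1.07. With the array number in the model, a number that runs with the treatments, the difference was -0.17 (SE 1.00) and did not pass, and none of the other 4 genes passed there.

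The 4 TBX4 features gave different answers. The feature of the RefSeq transcript read 6.80, 5.11, 6.0 and 6.04 in controls and 4.69, 4.35, 5.26 and 5.27 after SF-infusion, a difference of -1.09 (SE 0.44) past the unadjusted threshold, and followed the brightest feature at r = 0.96. Another differed by -0.56 (SE 0.20) and passed too. The remaining feature, with 6.12, 5.79, 6.47 and 6.06 in controls and 6.11, 6.16, 6.50 and 6.57 after SF-infusion, differed by 0.22 (SE 0.16), did not pass, and followed the brightest at -0.18.

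The tissue score itself ran with the treatments, with means of -1.54 in controls, 0.05 in mated hens and 1.49 in SF-infused hens. A difference lost with it in the model therefore cannot be assigned to tissue or to treatment. With the tissue score in the model TBX4 was still lower after SF-infusion, by -1.11 (SE 0.42), and still passed. The only other of the 38 genes to pass in that model was the duct and limb gene HOXA13, at -1.03 (SE 0.44). HOXB9, a gene of the trunk, read 7.54, 7.06, 7.49 and 7.23 in controls, 7.27, 6.77, 7.74 and 6.18 in mated hens and 6.78, 5.96, 6.37 and 6.81 in SF-infused hens. No SF-infused hen reached the lowest control. The difference was -0.85 (SE 0.31, adjusted p = 0.74 in limma, exact permutation p = 0.029), and -0.32 (SE 0.28) with the tissue score in the model, where it did not pass. The call was also lost without SF replicate 2, at -0.68 (SE 0.32).

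HOXD12, whose values are given above, was lower after SF-infusion by -1.47 (SE 0.54, adjusted p = 0.74 in limma, exact permutation p = 0.057), with control replicate 4 inside the SF-infused range. With the tissue score in the model its difference was -0.50 (SE 0.47) and did not pass, and the call was also lost without control replicate 2 or 3 or SF replicate 3, with differences between -1.90 and -1.06 over the arrays left out. HOXA6, a gene of the trunk, read 11.38, 10.65, 11.12 and 11.19 in controls, 10.90, 10.89, 11.15 and 10.47 in mated hens and 10.73, 10.92, 10.46 and 10.50 in SF-infused hens. It differed by -0.43 (SE 0.19, adjusted p = 0.74 in limma, exact permutation p = 0.086), with overlap at control replicate 2. The call was lost when any 1 of 8 of the 12 arrays was left out (all but control replicate 2, mated replicates 3 and 4 and SF replicate 2), and its second feature, at -0.41 (SE 0.27), did not pass.

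TBX6, which in the embryo marks the mesoderm that forms the somites, read 5.85, 6.33, 6.47 and 5.99 in controls, 6.22, 6.0, 6.05 and 6.13 in mated hens and 5.80, 5.73, 5.73 and 5.85 in SF-infused hens. Its difference was -0.38 (SE 0.13, adjusted p = 0.74 in limma, exact permutation p = 0.029) in SF-infused hens, whose values lay just under the lowest control. It was -0.22 (SE 0.14) with the tissue score in the model and did not pass, and the signal was among the lowest of the set. These values come from a feature that the array names TBX6L, a synonym of TBX6 in the RefSeq table. The feature named TBX6 followed it at r = 0.01 and, at -0.11 (SE 0.14), did not pass. PITX1 was 1.86 higher in SF-infused hens (SE 0.87, adjusted p = 0.74 in limma), just short of the unadjusted threshold, and the difference was -0.05 (SE 0.46) with the tissue score in the model. HOXD11 differed by -1.29 (SE 0.66), short of it too, and by 0.03 (SE 0.47) in that model.

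Markers of squamous epithelium, the shell gland and ciliated cells differed in the same comparison. After SF-infusion 4 of 10 squamous markers were higher and 4 of 10 eggshell gland markers lower past the unadjusted threshold, and 4 of 9 markers of ciliated cells were higher, with a cilia score of -0.07 to 0.42 in SF-infused hens and -0.50 to 0.16 in controls. Over all features 4.15% passed higher and 2.32% lower. The marker lists were chosen with earlier results of these data known, so these counts are descriptions. The eggshell gland score ran from -0.95 to 2.24 in controls and from -2.19 to 0.77 in SF-infused hens. No marker of smooth muscle (4 measured), columnar epithelium (4), egg white (7), T lymphocytes (8), fibroblasts (5) or testis and sperm (3) passed in any comparison, and none of the squamous, eggshell gland or cilia markers passed after mating. The part of ciliated cells in the lower HOX and TBX signals was not tested.

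In 3 of the 38 genes, TBX4, HOXB9 and TBX6, the SF-infused and control groups did not overlap, or 7.89%, against 3.84% of all features. Among the 20 HOX genes 19 estimates were below 0, with a median of -0.24, beside 48.3% of all features below 0 and a median of 0.01. The 16 HOX features under the older names, outside these 20, were less uniform. Of them 10 were below 0 and 6 above, with a median of -0.12. With the tissue score in the model 13 of the 20 were below 0, with a median of -0.15. With the array number in the model 10 of the 20 were below 0, with a median of 0.03. Without control replicate 1 the median was -0.16, with 16 below 0. Genes of a cluster are not independent, so these counts are descriptions. By position among the 20, which leaves out the older names, the median difference was -0.13 for the 6 genes numbered 1 to 4. It was -0.26 for the 5 numbered 5 to 8 and -0.47 for the 9 numbered 9 to 13. The median SD within groups rose in the same order, at 0.22, 0.27 and 0.51, and a trend with position was not tested. Among the 11 TBX genes 7 estimates were below 0, and their median was -0.16.

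HOXA3 showed how much the feature mattered. Its brightest feature under the naming rule, whose array name carries chromosome 8, read 10.57, 10.88, 10.66 and 10.61 in controls. It read 10.49, 10.43, 10.93 and 10.25 in mated hens and 10.43, 10.50, 10.39 and 10.76 in SF-infused hens, and passed in no comparison. The dimmer feature, named for chromosome 2, read 9.61, 9.25, 9.48 and 9.66 in controls, 9.48, 9.08, 9.15 and 8.93 in mated hens and 9.11, 9.17, 8.93 and 9.16 in SF-infused hens. It was lower after mating by -0.34 (SE 0.13) and after SF-infusion by -0.41 (SE 0.13), past the unadjusted threshold in both, and every SF-infused hen lay below every control. The HOXA3 feature under the older name, with a mean of 12.33, was brighter than both. It followed the dimmer feature at r = 0.84 and the chromosome 8 feature at 0.02. Its difference from control was -0.19 (SE 0.15) in both comparisons, short of the threshold. The chromosome 8 feature and the dimmer feature followed each other at 0.32. Whether the chromosome 8 feature measures HOXA3 was not tested. It nevertheless stands for HOXA3 in the HOXA medians, the neighbour correlations and the counts of HOX genes.

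**Figure D4:**
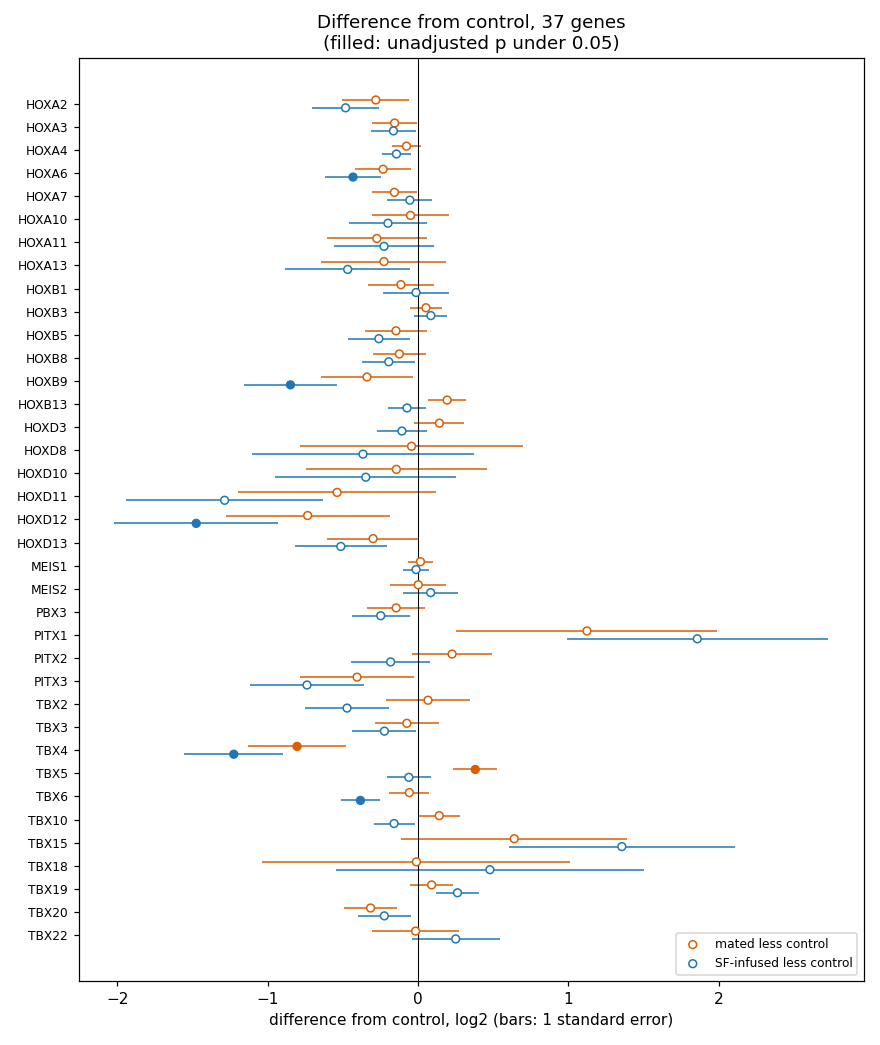
Difference from control of 37 of the genes on a log2 scale (x axis) by gene (y axis), orange for mated and blue for SF-infused hens (4 hens per group), with bars of 1 standard error and filled points where the unadjusted p is under 0.05. The filled points are TBX4 and TBX5 for mating and TBX4, HOXD12, HOXB9, HOXA6 and TBX6 for SF-infusion.

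After mating 2 of the 38 genes passed, or 5.26%, against 2.22% of all features. TBX4 was lower by -0.80 (SE 0.33, adjusted p = 1.00 in limma, exact permutation p = 0.086) and TBX5 higher by 0.38 (SE 0.15, adjusted p = 1.00, exact permutation p = 0.057), where 0.867% of features passed lower and 1.35% higher. By the brightest feature the mated and control groups overlapped in all 38 genes, while 1.34% of all features were free of overlap. TBX4 overlapped through mated replicates 1 and 2 and the lowest control, and lost the threshold without control replicate 1, 3 or 4 or mated replicate 3 or 4, with differences between -1.04 and -0.50. The TBX4 call was lost as well with the tissue score (-0.74, SE 0.36), array weights (-0.39) or the mean over its features (-0.46). Its other features differed by -0.92 (SE 0.44), -0.18 (SE 0.20) and 0.08 (SE 0.16), and none passed.

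TBX5 read 5.82, 6.12, 6.28 and 6.53 in controls, 6.39, 6.63, 6.55 and 6.70 in mated hens and 6.20, 6.24, 5.96 and 6.11 in SF-infused hens. The highest control lay inside the mated range. It lost the threshold without control replicate 1 or 2 or mated replicate 2 or 4, with differences between 0.26 and 0.50. Its signal was low, and its other features differed by 0.17 (SE 0.10) and 0.19 (SE 0.13) and did not pass. On the first of these the mated and control groups did not overlap, at 6.29 to 6.55 in mated hens and 6.05 to 6.27 in controls. Of the 20 HOX genes 17 estimates were below 0 after mating, with a median of -0.15, beside 49.8% of all features below 0. Of the 16 HOX features under the older names 12 were below 0 and 4 above, with a median of -0.12. The median of the 20 was -0.05 with the tissue score in the model (14 below 0) and -0.01 with the array number (10 below 0). It was -0.08 without mated replicate 4 (14 below 0) and -0.23 without mated replicate 3 (17 below 0). TBX4, at -0.28 (SE 0.57), and TBX5, at 0.03 (SE 0.23), did not pass with the array number in the model.

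The treatments were also compared with each other. Mated hens received sperm and fluid by copulation, and SF-infused hens fluid alone by insemination. The groups also held different places on the slide, so the part of sperm cannot be singled out. Again 2 of the 38 genes passed (5.26%, with 4.70% of all features), both higher in mated hens. TBX5 was 0.44 higher (SE 0.15, adjusted p = 0.87 in limma, exact permutation p = 0.029), with no overlap between the groups, and it still passed with any 1 array left out, at 0.39 to 0.50. Its other features were 0.20 (SE 0.10) and 0.16 (SE 0.13) higher, overlapped and did not pass. They followed the brightest at r = 0.79 and 0.06. The mean over the TBX5 features, 0.27 higher, still passed. TBX6 was 0.33 higher (SE 0.13, adjusted p = 1.00 in limma, exact permutation p = 0.029), also without overlap, and lost the threshold without mated replicate 1 or 4 or SF replicate 1, 2 or 3. It was lost as well with the replicate block, the array number, the tissue score (0.25, SE 0.12), trended and robust eBayes or the mean over its features, and the feature named TBX6 differed by 0.09 (SE 0.14) and did not pass. Groups without overlap numbered 3 of 38 genes (7.89%, with 3.04% of all features), the third being TBX2, a repressor related to TBX3. It read 11.84, 12.34, 12.05 and 11.87 in mated hens and 11.83, 11.75, 11.58 and 10.79 in SF-infused hens, a difference of 0.54 (SE 0.28) short of the unadjusted threshold (exact permutation p = 0.029), with controls at 12.46, 11.41, 11.65 and 12.32 on both sides. The other TBX2 feature followed it at r = 0.98, differed by 0.52 (SE 0.34) and overlapped. There SF replicates 1 and 2, at 10.72 and 10.64, lay above mated replicates 1 and 4, at 10.57 and 10.45. TBX4 differed by 0.42 between the treatments (SE 0.33) and did not pass.

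**Figure D5:**
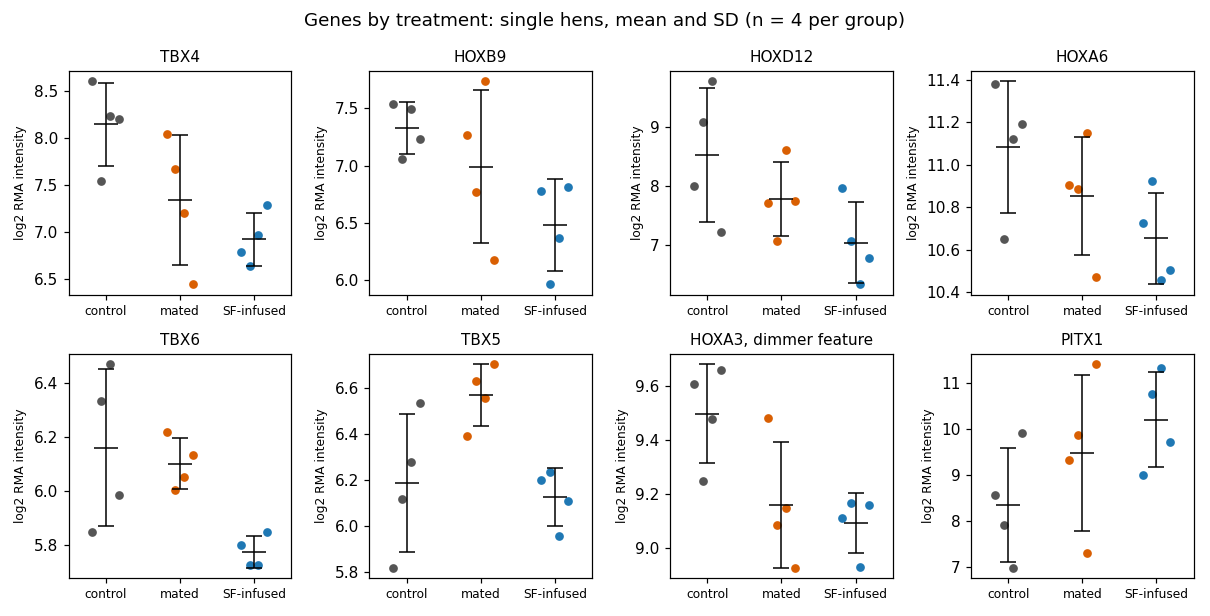
Signal on a log2 scale (y axes) by group (x axes) of the 6 genes past the unadjusted threshold, of the dimmer HOXA3 feature and of PITX1, with a point for each hen and the mean and SD of 4 hens in black. SF-infused hens lie below all controls in TBX4, HOXB9, TBX6 and the dimmer HOXA3 feature, and mated hens above all SF-infused hens in TBX5.

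Few genes of the partner and pathway lists passed. The lists are small, and only 2.22% of all features passed after mating, 6.47% after SF-infusion and 4.70% between the treatments, so counts of 0 to 2 lie near the background. Of 17 measured regulators of HOX genes (Polycomb and Trithorax proteins and the retinoid pathway) 0 passed an unadjusted p of 0.05 in limma in any of the 3 comparisons, with medians between -0.01 and 0.01 over estimates that reached -1.61 (SE 0.85) for the retinoic acid degrading enzyme CYP26A1 after SF-infusion. Of 7 further HOX partner factors 0 passed against controls. Between the treatments PKNOX2, a relative of MEIS, was lower in mated hens by -0.67 (SE 0.20) and IRX4 was higher by 0.33 (SE 0.14). Of 20 genes of reproductive duct patterning 0 passed against controls, among them the duct factor LHX1 at -1.97 (SE 1.35) after mating, and EMX1 was higher in mated than in SF-infused hens by 0.57 (SE 0.24).

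Of 14 limb and body-wall partners of TBX4, TBX5 and PITX1, 1 passed higher after mating, HAND1 at 0.56 (SE 0.23). After SF-infusion 1 was higher, the signal protein SHH at 1.10 (SE 0.44), and 1 was lower, the Wnt pathway factor TCF7 at -1.29 (SE 0.50). Between the treatments TCF7, by 1.23 (SE 0.50), and LMX1B, by 0.40 (SE 0.13), were higher in mated hens. Of 10 features of further T-box and HOX-like genes, that of the mesoderm factor TBXT was higher after SF-infusion by 0.36 (SE 0.13). Another of them, named T, an older name of the same gene, differed by -0.06 (SE 0.42). EVX1, the neighbour of HOXA13, was higher after mating by 0.54 (SE 0.24). None of the 16 HOX features under the older names passed in any comparison.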

How the data were processed

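RNA of the UVJ of 12 hens was hybridised to a custom NimbleGen array in the Cy3 channel. The deposited values are intensities that the authors background-corrected, quantile normalised and summarised over 3 probes per feature by RMA in the DEVA software (version 1.2.1). The genome build of the array was not given in the sources used here. The series table held the same values.

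Values were taken to log2 without a pseudocount. Group means were fitted over 37374 features and 12 arrays with limma (version 3.58.1, R 4.3.3), and p-values were adjusted over all features by the Benjamini-Hochberg method. The brightest of the features taken by name stood for each gene. Values in every array were printed for genes past an unadjusted p of 0.05, genes where only another feature passed, the 6 brightest, the 3 dimmest and the 3 with the largest SD. The values of 1 gene are not reported here. The HOXD8, HOXD10 and HOXD11 values were added after they were seen. Marker lists also covered smooth muscle, columnar epithelium, cilia, egg white, T lymphocytes, fibroblasts and testis. The members and lists were chosen with earlier results of these data known. Scripts were tested on simulated data. Precision is limited by 4 hens per group.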

Additional observations from a re-analysis of the deposited data

Results flagged for a closer look

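In 2 of the 111 sets of 4 hens examined for a single distant value, 1 hen stood apart from the rest of its group, where chance gives about 1 in 20. MEIS2 was 12.37 in mated replicate 3, against 12.96 to 13.07 in the other mated hens. TBX22 was 7.44 in SF replicate 1, against 6.51 to 6.62 in the other SF-infused hens. TBX5 and TBX6 differed between the treatments past the unadjusted threshold of limma, by 0.44 and 0.33 higher in mated hens.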

How the results depend on the processing

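Counts of genes past the unadjusted threshold depended on the settings. Filters on signal also cut the genes tested, to 24 without the dimmest 25% of features and 15 without features below the median. HOXB9, TBX5 and TBX6 were removed by either filter, TBX4 and HOXD12 only by the one at the median. Genes past the threshold in the main fit that were still tested kept it. The lower counts under these filters therefore came from genes left untested. For mating versus control the count of 2 was 1 without the dimmest features (25% of all), with only the groups compared, with the array number (TBX22, not among the 2) or the tissue score in the model and with the mean over the features of a gene, and 0 without features below the median signal and in exact permutation tests. For SF-infusion versus control the count of 5 was 3 without the dimmest 25%, 1 without features below the median, 2 with the array number (HOXA11 and TBX22, neither among the 5), 2 with the tissue score (TBX4, among the 5, and HOXA13, which is not), 8 with array weights and 3 in exact permutation tests. For mating versus SF-infusion the count of 2 was 4 with quantile normalisation over features, 0 without the dimmest 25%, 0 without features below the median, 1 with trended and robust eBayes and 6 with array weights. With single arrays left out the counts ran from 0 (control replicate 1 or mated replicate 4) to 5 (mated replicate 3), from 3 (control replicate 3 or SF replicate 3) to 9 (control replicate 4) and from 1 (SF replicate 1 or 3) to 4 (mated replicate 4). The share of all features that passed moved too. With array weights it was 10.9% for SF-infusion and 7.54% between the treatments, against 6.47% and 4.70% in the main fit. It was 8.21% for SF-infusion without control replicate 4. For mating it was 5.64% without mated replicate 3, against 2.22%. Between the treatments it rose to 5.9% without SF replicate 1, where the count fell. HOXA6 turned to 0.17 in SF-infusion versus control with the array number in the model, which shares its variation with the treatment. For the tissue score, a test added after the data were seen, the count of 8 was 1 with the eggshell gland score alone and ran from 2 (without mated replicate 3) to 10 (without control replicate 1), with 5 without control replicate 3. The cause of these changes was not tested unless stated.

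Deviations of same-numbered hens correlated at -0.36 to 0.62, with 0.62 and 0.51 for replicates 3 and 4 of mated and control hens. These values establish no pairing by number and cannot exclude one. Which male's fluid each SF-infused hen received was not given in the sources used here, so a link through the male was not tested. With the replicate block the counts were 2, 4 and 2, where HOXA6 lost the threshold after SF-infusion and TBX10 took the place of TBX6 between the treatments. Low signals such as TBX20 and TBX6 and the brightest features limit what could be seen.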
